A study of Mus musculus with 18 samples.

Results

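The effect of minocycline added to isoproterenol was examined in 12 of the 18 left ventricle libraries of the study, chosen by their treatment label. Of these, 6 came from mice given both drugs and 6 from mice given isoproterenol without minocycline. All 18 libraries were polyadenylated RNA of wild type male C57BL/6J mice aged 12 weeks. In both groups isoproterenol was infused at 30 mg/kg/day from an osmotic pump, and hearts were collected after 21 days. The group given both drugs was injected intraperitoneally each day with minocycline at 50 mg/kg, and the other animals with saline. The remaining 6 libraries came from control mice with saline in the pump, and they enter here as a reference level and in the shared estimate of spread. A group given minocycline without isoproterenol is not among the samples used here, so an effect of minocycline on the unstressed heart could not be measured. The protocol text speaks of pooled RNA, and whether each library is 1 animal is uncertain.

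Isoproterenol stimulates the β-adrenergic receptors of the heart, and sustained infusion in mice produces cardiac hypertrophy, fibrosis and inflammatory cell entry. Minocycline is a tetracycline antibiotic that binds the bacterial ribosome, and tetracyclines also slow translation in mitochondria, whose ribosomes are of bacterial descent. It is used in animal studies as an anti-inflammatory agent that restrains microglia and macrophages and inhibits matrix metalloproteinases and PARP1.

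The 12 libraries held 14203041 to 21772148 counts. Libraries with minocycline averaged 2353570 more counts than those without (exact 2-sided permutation test over 924 regroupings, p = 0.102). Genes of the mitochondrial genome took 43.2 ± 2.14% of the counts without and 44.6 ± 2.06% with minocycline (SD, n = 6 each, exact permutation p = 0.301). Expression is given below as CPM, with library sizes adjusted by TMM. The 9 cardiomyocyte markers summed to 56065 to 61113 CPM without and 54480 to 66400 CPM with minocycline, so the defining genes of the labelled tissue were present. Atrial markers were also present and uneven: Myl7, an atrial myosin light chain, ranged from 8.44 to 96.3 CPM without and from 10.3 to 206 CPM with minocycline.

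Adding minocycline changed few genes. Of 13281 genes tested with edgeR's quasi-likelihood test, 7 passed a Benjamini-Hochberg adjusted p of 0.05, which is 0.0527% of the genes. Ptgds, which encodes a prostaglandin D synthase, was the 1 gene that rose (0.00753%), and 6 genes fell (0.0452%): the MHC class II genes H2-Aa and H2-Ab1, the kinase gene Camk2b, the prion paralog Prnd, and the clone-named genes 3425401B19Rik and 2210407C18Rik. For scale, the same fit called 12.6% of genes for isoproterenol versus control and 19.3% for both drugs versus control, comparisons that share libraries with this one. At an unadjusted p under 0.05 stood 515 genes higher with minocycline (3.88%) and 495 lower (3.73%). The libraries of both groups did not overlap for 46 genes (0.346%), 25 higher and 21 lower. The median log2 fold change over all genes was -0.0026, and the median size of a change was 0.089 on the log2 scale, against 0.14 for isoproterenol versus control. Changes past 2-fold were estimated for 43 genes. The median standard error of a log2 fold change was 0.11, and 0.081 among genes of at least 10 CPM. These counts depended on single libraries: the number of called genes was 1 without minocycline replicate 1 or 4 or without isoproterenol replicate 6, and 13 without minocycline replicate 6. DESeq2 called 37 genes, the same 7 among them.

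**Figure D1:**
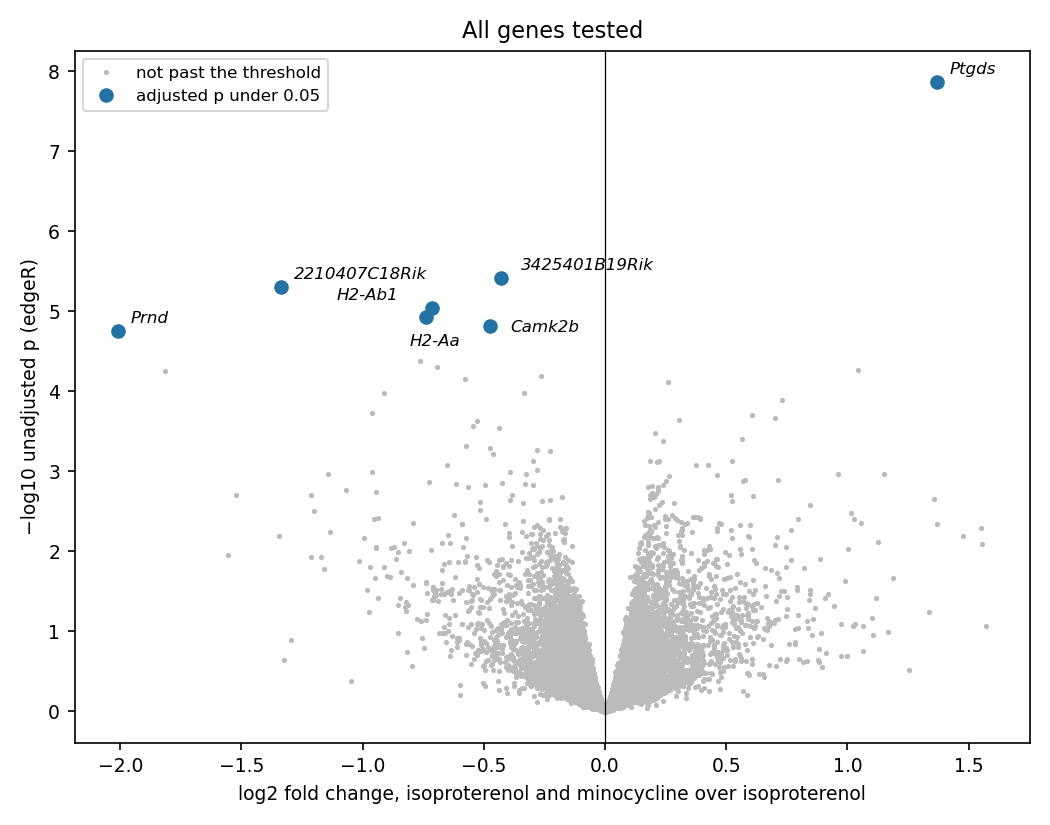
Each point is 1 of the 13281 genes tested, with the log2 fold change of isoproterenol and minocycline over isoproterenol on the x axis and −log10 of edgeR's unadjusted p on the y axis. The 7 called genes are drawn large and named, and Ptgds stands apart on the right with the smallest p of all genes.

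Ptgds encodes lipocalin-type prostaglandin D synthase, which converts prostaglandin H2 to prostaglandin D2. Its transcripts lay between 130 and 197 CPM without minocycline (median 169) and between 292 and 529 CPM with it (median 421), at chr2:25466709-25470046 on the minus strand. The lowest library with minocycline stood above the highest without it. Ptgds rose 2.58-fold (log2 fold change 1.37, SE 0.14, 95% interval 1.07 to 1.67, edgeR adjusted p = 0.000181, higher in 6 of 6 libraries). Per transcript length its mean level went from 164 to 406 TPM. The gene was called under all 22 alternative analyses, those leaving out each library among them, with log2 fold changes of 1.30 to 1.46. Control libraries averaged 339 ± 66.4 CPM (SD, n = 6). The log2 fold change from control was -1.04 for isoproterenol (adjusted p = 0.000101) and 0.33 for both drugs (adjusted p = 0.108), so the mean with both drugs was closer to control than the mean with isoproterenol.

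Ptgds was the sole called member among 26 tested genes of eicosanoid and prostaglandin synthesis. The inducible cyclooxygenase gene Ptgs2, upstream of it in the pathway, had a log2 fold change of 0.73 (SE 0.31, adjusted p = 0.593), and the prostaglandin E2 receptor gene Ptger4 one of 0.37 (SE 0.17, adjusted p = 0.640). Both stood at an unadjusted p under 0.05 without passing the threshold. The other prostaglandin D synthase gene, the haematopoietic Hpgds, was at 1.81 ± 0.285 CPM without and 1.63 ± 0.201 CPM with minocycline (log2 fold change -0.14, SE 0.15, adjusted p = 0.834). The list's median log2 fold change was 0.10.

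**Figure D2:**
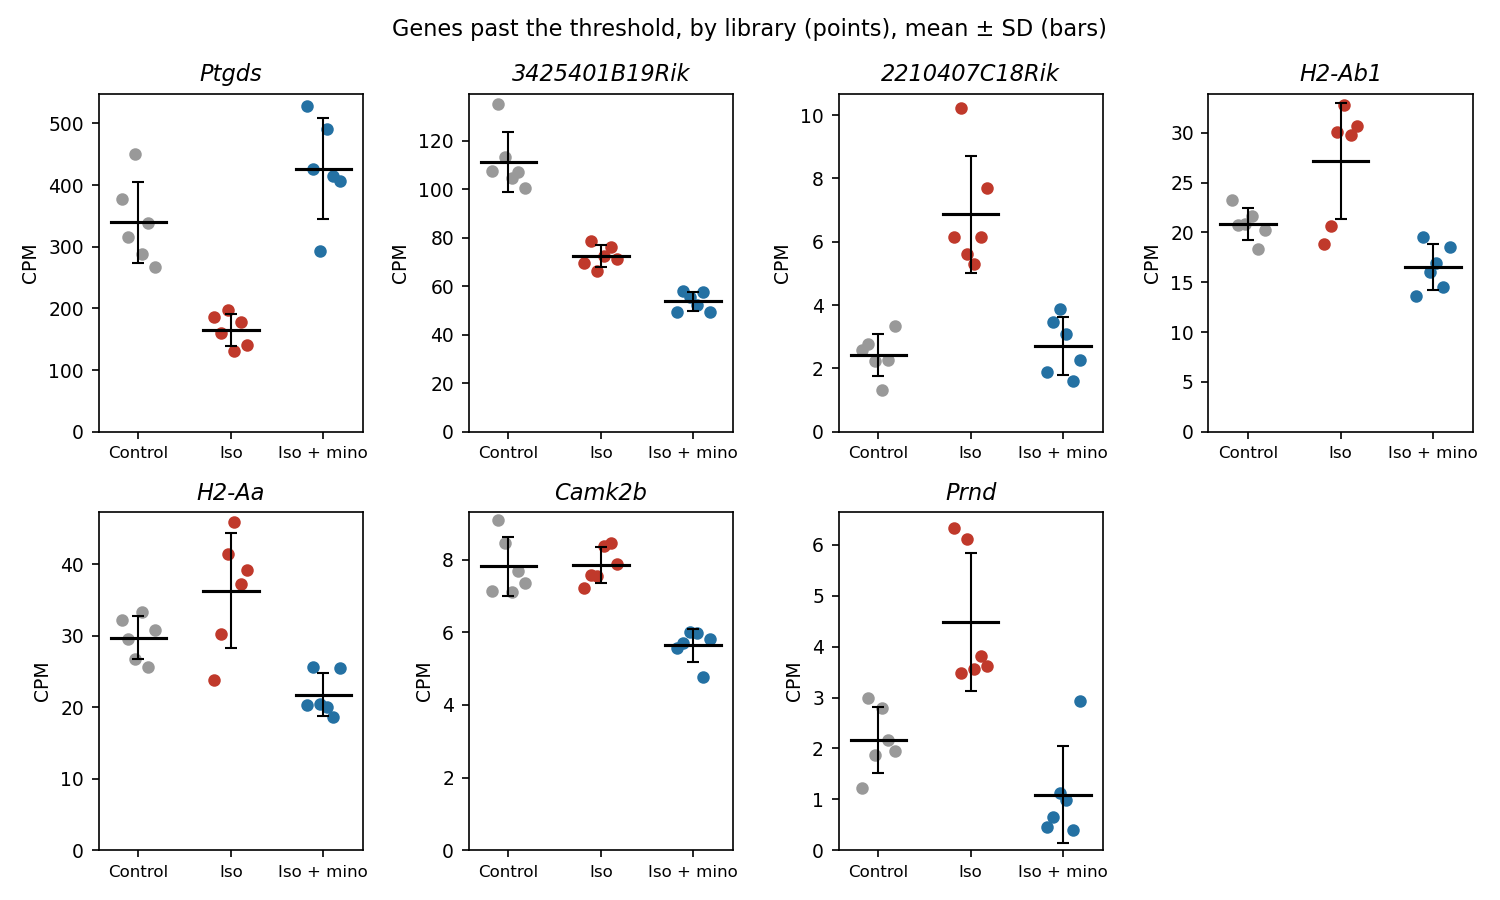
CPM of the 7 called genes in every library (points) with the group mean and SD (bars), for control, isoproterenol, and isoproterenol with minocycline. Ptgds is the gene that is higher with minocycline; for 3425401B19Rik, 2210407C18Rik, Camk2b and Prnd every library with minocycline lies below every library without it, while H2-Ab1 and H2-Aa overlap.

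MHC class II molecules are pairs of α and β chains that present peptides to CD4+ T cells; the invariant chain Cd74 guards the peptide groove, H2-DM loads peptides, and H2-DO restrains H2-DM. Their genes are switched on together by the coactivator CIITA, which is recruited to promoters through the X and Y boxes. All 8 tested genes of this group were lower in the mean with minocycline, and promoter sequences are shown for those members in which both boxes were found. RefSeq promoter windows of GRCm38.p6 (250 bases before to 50 after the start) were searched on both strands for CTNGNAAC, as in an X box, followed within 40 bases on the same strand by GATTGG, the Y box core. H2-Aa (chr17:34287855-34287919, minus strand), H2-DMb1 (chr17:34153082-34153146), H2-Eb1 (chr17:34305761-34305824) and H2-Ob (chr17:34238803-34238864, these 3 on the plus strand) held the pair, with both motifs in capitals:
H2-Aa: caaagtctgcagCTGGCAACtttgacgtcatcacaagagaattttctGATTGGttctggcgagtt
H2-Eb1: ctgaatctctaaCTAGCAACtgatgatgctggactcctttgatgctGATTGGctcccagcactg
H2-DMb1: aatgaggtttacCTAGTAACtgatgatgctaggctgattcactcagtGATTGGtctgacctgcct
H2-Ob: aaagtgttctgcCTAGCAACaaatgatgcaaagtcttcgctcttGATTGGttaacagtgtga

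The motifs lay 24 to 27 bases apart, and the second ended 43 to 56 bases before the start. Of 32851 promoter windows of the same length, 13.15% held the first motif, 16.1% the second and 0.158% (52 windows) the pair. No pair was found in the windows of H2-DMa, H2-DMb2, H2-Eb2 and H2-Oa. H2-Ab1, Cd74 and Ciita had no matched window.

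H2-Aa encodes the α chain of I-A and lies at chr17:34282744-34287827 on the minus strand. It ranged from 23.8 to 45.9 CPM without minocycline (median 38.2) and from 18.6 to 25.6 CPM with it (median 20.3). Isoproterenol replicate 1 lay within the range with minocycline, and the other 5 lay above it. H2-Aa fell 1.67-fold (log2 fold change -0.74, SE 0.13, edgeR adjusted p = 0.031).

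H2-Ab1, the β chain gene of I-A at chr17:34263209-34269418 on the plus strand, ranged from 18.9 to 32.8 CPM without minocycline (median 29.9) and from 13.6 to 19.5 CPM with it (median 16.5). Isoproterenol replicate 1 was again the library that overlapped. H2-Ab1 fell 1.64-fold (log2 fold change -0.71, SE 0.12, edgeR adjusted p = 0.030). Per length, H2-Aa went from 31.4 to 18.2 TPM. Control means were 20.9 CPM for H2-Ab1 and 29.7 CPM for H2-Aa, between both drug groups. Both genes were called in 11 of 22 alternatives and lower in all of them. Their calls were lost without minocycline replicate 1, 3, 4 or 5 or isoproterenol replicate 3, 4, 5 or 6, with adjusted p up to 0.101 in these fits.

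The remaining class II genes were lower in the mean, without passing the threshold. H2-Eb1, the β chain gene of I-E, ranged from 18.9 to 32.5 CPM without and from 12.8 to 22.5 CPM with minocycline (log2 fold change -0.69, SE 0.14, adjusted p = 0.067). Cd74 was at 83.5 ± 15.9 CPM without and 55.8 ± 8.71 CPM with minocycline (log2 fold change -0.58, SE 0.12, adjusted p = 0.072). The peptide exchange genes H2-DMb1, H2-DMa and H2-Ob had log2 fold changes of -0.48, -0.36 and -0.79, with unadjusted p of 0.0135, 0.0443 and 0.0267. The transactivator gene Ciita, overlapped by Dexi, was at 0.799 ± 0.185 CPM without and 0.704 ± 0.207 CPM with minocycline (log2 fold change -0.19, SE 0.29, unadjusted p = 0.523). In a class II list assembled after values were seen, all 8 tested genes of 11 were lower, 7 of them at an unadjusted p under 0.05, with a median log2 fold change of -0.64. Their summed level was 130 to 217 CPM without and 101 to 140 CPM with minocycline.

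Estimates for class I genes were nearer 0. H2-K1, a classical class I heavy chain, had a log2 fold change of -0.10 (95% interval -0.43 to 0.23), and its light chain B2m one of -0.11 (-0.38 to 0.16). H2-D1 stood at -0.09, and the peptide transporter gene Tap1 at -0.25 (adjusted p = 0.727). Of the 21 tested antigen presentation genes, 18 were lower (median -0.18) and 2 were called, both lower. At an unadjusted p under 0.05 stood 7, all lower and all of class II. Over all 13281 genes tested, 6737 were lower, 3.73% were lower at that p and 0.0452% were called lower. Whether class II and class I genes differed in their response was not tested.

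**Figure D3:**
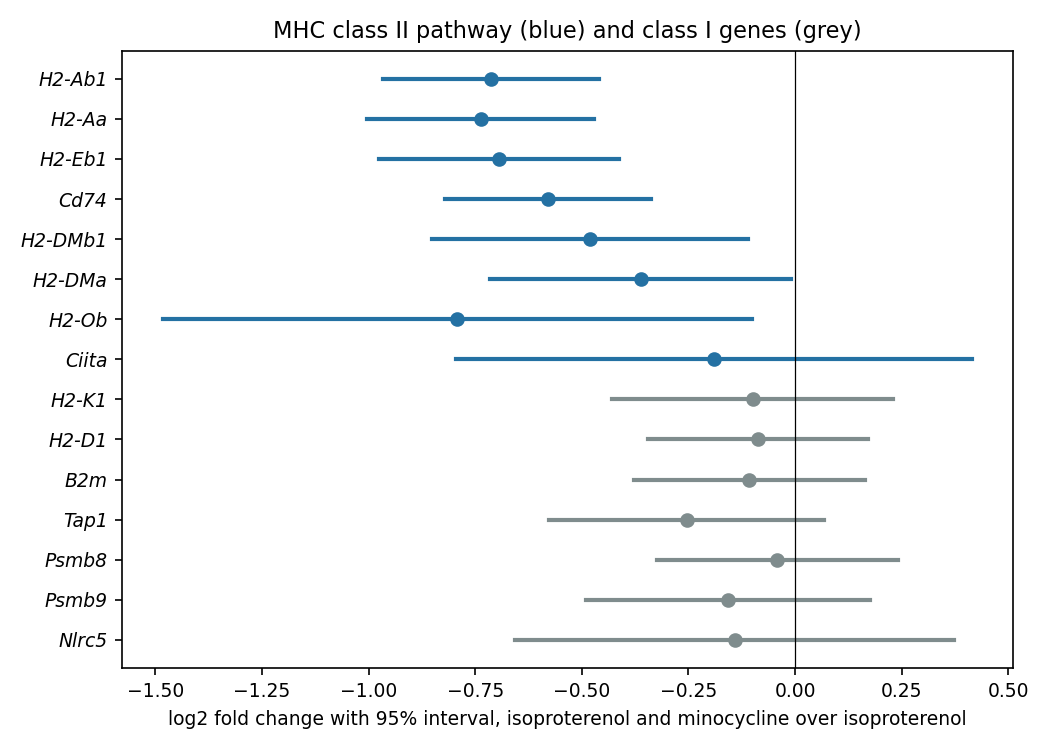
Log2 fold change of isoproterenol and minocycline over isoproterenol (x axis) with its 95% interval for 8 genes of the MHC class II pathway (blue) and 7 of the class I pathway (grey). The intervals of 7 class II genes lie below 0, and those of Ciita and the class I genes cross it.

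Markers of cells that present antigen were followed beside these genes, since in bulk tissue fewer cells of a type and less RNA per cell cannot be told apart. The 23 tested macrophage and monocyte markers had a median log2 fold change of 0.006, none was called, and none of the list was at 0. Their summed level was 192 to 262 CPM without and 197 to 291 CPM with minocycline. Of these markers 14 were higher and 9 lower. At an unadjusted p under 0.05 stood 2 higher and 2 lower, against 3.88% and 3.73% of all genes tested. The lower were the recruited monocyte genes Ccr2 (log2 fold change -0.46) and Ly6c2 (-0.71). The higher were the resident macrophage genes Mrc1 (0.23) and Lyve1 (0.56). The highest estimate was that of Spp1 (0.59), which was not at that p, and Lgals3 stood at 0.10. Whether recruited and resident markers differed was not tested. Lyve1 is also a lymphatic endothelial marker, and Reln and Mmrn1 of that list stood at 0.48 and 0.47. The pan-macrophage genes Adgre1 and Cd68 stood at -0.04 and 0.003. Ptprc, the leukocyte antigen CD45, was at 6.52 ± 0.811 CPM without and 4.90 ± 0.421 CPM with minocycline (log2 fold change -0.41, SE 0.13, adjusted p = 0.455).

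B cells also carry class II molecules, and the 2 tested B cell genes were lower in the mean. Ighm, the μ heavy chain, had a log2 fold change of -0.45 (SE 0.18, adjusted p = 0.553), and Igkc, the κ light chain, one of -0.98 (SE 0.42, adjusted p = 0.593). The summed B cell markers were at 4.48 to 6.02 CPM without and 1.79 to 5.26 CPM with minocycline. Cd79a, Cd79b, Ms4a1 and Jchain were too low to test, and none of these was at 0 in all 12 libraries. The part of these cells in the class II result was not tested.

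Prnd encodes doppel, a GPI-anchored paralog of the prion protein found in testis and developing endothelium, and had the largest change of the called genes. It ranged from 3.48 to 6.34 CPM without minocycline (median 3.72) and from 0.403 to 2.94 CPM with it (median 0.818), at chr2:131950861-131956130 on the plus strand. The groups did not overlap, but minocycline replicate 6 stood at 2.94 CPM while the other 5 did not exceed 1.13 CPM. Prnd fell 4.02-fold (log2 fold change -2.01, SE 0.35, edgeR adjusted p = 0.033). The gene is weakly expressed, with 870 counts over all 18 libraries and means of 2.28 and 0.53 TPM. Its call held in 7 of 22 alternatives, and in 2 of 12 that each left out 1 library (those without isoproterenol replicate 2 or minocycline replicate 6); in the other 10 the adjusted p was at most 0.119. Control libraries averaged 2.17 ± 0.646 CPM. The prion gene Prnp itself was at 101 ± 4.26 CPM without and 90.7 ± 4.26 CPM with minocycline (log2 fold change -0.16, SE 0.05, adjusted p = 0.464), and the libraries of both groups did not overlap.

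2210407C18Rik, a protein-coding gene of unnamed function at chr11:58608204-58616075 on the minus strand, had the pattern of a gene raised by isoproterenol and near control with both drugs. It ranged from 5.31 to 10.2 CPM without minocycline (median 6.14) and from 1.61 to 3.89 CPM with it (median 2.69). The groups did not overlap. 2210407C18Rik fell 2.52-fold (log2 fold change -1.34, SE 0.22, edgeR adjusted p = 0.022). Control libraries averaged 2.42 ± 0.675 CPM, and the log2 fold change from control was 1.52 for isoproterenol (adjusted p = 0.000134) and 0.18 for both drugs (adjusted p = 0.634). The call held in 16 of 22 alternatives and was lost without minocycline replicate 1, 4 or 5 or isoproterenol replicate 6 (adjusted p up to 0.097).

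3425401B19Rik, which RefSeq also lists as Cefip, encodes a cardiac-enriched Z-disc protein that binds FHL2. It lies at chr14:32659119-32685272 on the minus strand. It ranged from 66.4 to 78.8 CPM without minocycline (median 71.9) and from 49.3 to 58.2 CPM with it (median 54.1), again without overlap. 3425401B19Rik fell 1.35-fold (log2 fold change -0.43, SE 0.07, edgeR adjusted p = 0.022). Unlike Ptgds and 2210407C18Rik, its mean with both drugs was farther from the control mean of 111 ± 12.4 CPM than its mean with isoproterenol. The log2 fold change from control was -0.62 for isoproterenol and -1.05 for both drugs, each called. The call held in 18 of 22 alternatives and was lost without minocycline replicate 1 or 4 or isoproterenol replicate 6 (adjusted p up to 0.097).

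Camk2b encodes the β subunit of calcium/calmodulin-dependent protein kinase II, a kinase that in heart acts mainly through its δ subunit. It lies at chr11:5969644-6066362 on the minus strand. Its transcripts ranged from 7.23 to 8.45 CPM without minocycline (median 7.74) and from 4.78 to 6.00 CPM with it (median 5.76), with no overlap. Camk2b fell 1.39-fold (log2 fold change -0.47, SE 0.09, edgeR adjusted p = 0.033). The control mean of 7.82 ± 0.804 CPM was close to that with isoproterenol, and the log2 fold change of both drugs from control was -0.47 (adjusted p = 0.000609). Its call held in 10 of 22 alternatives, and it was lost without minocycline replicate 1, 2, 4 or 5 or isoproterenol replicate 3, 4, 5 or 6 (adjusted p up to 0.113).

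The paralogs of Camk2b did not pass the threshold. The log2 fold change was 0.01 for Camk2d (95% interval -0.15 to 0.18), 0.01 for Camk2a (-0.19 to 0.21) and 0.03 for Camk2g (-0.09 to 0.15). Per length, Camk2b was the lowest of the 4, at 1.41 TPM without minocycline against 6.10 TPM for Camk2d. The list of 44 genes for calcium handling and ion channels was written without Camk2b. It held 0 genes called by edgeR and had a median of -0.06. Over all genes tested, 3.73% were lower at an unadjusted p under 0.05. In this list 4 genes stood at that p, all lower. Among them were the pacemaker channels Hcn2 (log2 fold change -0.53, SE 0.12, adjusted p = 0.141) and Hcn4 (-0.53, SE 0.20) and the skeletal muscle type sodium channel Scn4a (-0.64, SE 0.22).

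Leaving out the 2 libraries with over 80 CPM of Myl7 in this comparison (isoproterenol replicate 5 and minocycline replicate 2), together with the 2 such controls, left Ptgds as the sole called gene. All 7 called genes kept their direction there and in each of the 22 alternatives. Adjusted p in that fit was 0.133 for 3425401B19Rik and 2210407C18Rik, 0.175 for H2-Ab1 and H2-Aa, and 0.302 for Camk2b and Prnd. With the mean of Sln, Myl7 and Myl4 as a covariate 8 genes were called, 6 of them among the 7.

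Below the threshold, the genes of at least 1 CPM on average with the smallest p were Apln, H2-Eb1, Gnmt, Arl2bp, Cd74, Rpsa, Sh3bgr, Cxcl9, Angpt2, Foxm1, Peg3, Ust and Fth1, the ferritin heavy chain. Apln, the peptide ligand of the apelin receptor with inotropic and vascular actions, ranged from 6.18 to 11.1 CPM without and from 4.19 to 6.30 CPM with minocycline (log2 fold change -0.76, SE 0.15, adjusted p = 0.067). Its receptor gene Aplnr had a log2 fold change of -0.81 (SE 0.28, adjusted p = 0.515). Gnmt, a glycine methyltransferase that uses S-adenosylmethionine, was at 1.25 ± 0.435 CPM without and 2.62 ± 0.639 CPM with minocycline (log2 fold change 1.04, SE 0.21, adjusted p = 0.067), with no overlap.

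The chemokine gene Cxcl9, induced by interferon γ, was at 2.78 ± 0.689 CPM without and 1.47 ± 0.296 CPM with minocycline (log2 fold change -0.91, SE 0.19, adjusted p = 0.088). Angpt2, a ligand of the endothelial receptor Tie2 that lies inside Mcph1, had a log2 fold change of 0.73 (SE 0.16, adjusted p = 0.101). Reads of Angpt2 and Mcph1 could not be told apart with certainty, as no source used here says whether strand was used in counting. The imprinted gene Peg3 stood at 0.61 (SE 0.13, adjusted p = 0.136). Sh3bgr, expressed in striated muscle, and Arl2bp, a partner of the small GTPase ARL2, had smaller differences of -0.33 and -0.26.

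Most tested cell cycle genes were lower in the mean, and no member of this list was called by edgeR. Of 40 tested, 37 had a negative log2 fold change, with a median of -0.34 against -0.0026 over all genes. At an unadjusted p under 0.05 stood 15 of the lower ones and 0 of the higher ones. Over all 13281 genes tested, 6737 were lower, and 3.73% were lower at that p. Mki67, the classical proliferation marker, was at 5.89 ± 1.33 CPM without and 2.53 ± 1.495 CPM with minocycline (log2 fold change -1.21, SE 0.34, adjusted p = 0.351). Top2a, the topoisomerase of dividing cells, stood at -0.83 (SE 0.28), the mitotic kinase Cdk1 at -0.95 (SE 0.30), and the chromatin protein Hmgb2 at -0.44 (SE 0.10, adjusted p = 0.158). Foxm1, a transcription factor of the G2 and M phases, was at 1.44 ± 0.295 CPM without and 0.733 ± 0.239 CPM with minocycline (log2 fold change -0.96, SE 0.21, adjusted p = 0.136).

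Of the G1 cyclins, Ccnd2 had a log2 fold change of -0.18 (SE 0.08, unadjusted p = 0.0294) and Ccnd1 one of -0.07 (SE 0.10), and the replication clamp Pcna stood at -0.06 (SE 0.06). Many of the mitotic genes were under 2 CPM, and a filter of 1 CPM in 6 libraries kept 29 of the 40 and moved the list's median to -0.17. In the other alternatives the median lay between -0.43 and -0.27. Which cells these transcripts came from was not tested.

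Cytosolic ribosomal protein genes were mostly higher in the mean. In this list, assembled after values were seen, 80 of 81 tested genes had a positive log2 fold change and 0 were called by edgeR. At an unadjusted p under 0.05 stood 56, all higher. Over all 13281 genes tested, 6544 were higher, and 3.88% were higher at that p. The list was assembled with its values known, so its counts are descriptions. The median was 0.15, the range -0.01 to 0.31, and the summed level 11230 to 12872 CPM without and 12181 to 13750 CPM with minocycline. Rpsa, a protein of the small subunit, had the smallest p: it ranged from 335 to 393 CPM without and from 407 to 459 CPM with minocycline, with no overlap (log2 fold change 0.26, SE 0.05, adjusted p = 0.072). Under the alternative scalings and filters and without single libraries, the median stayed between 0.13 and 0.18.

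Transcripts of mitochondrial ribosomal protein genes had a median near that of all genes. Translation by mitochondrial ribosomes, which tetracyclines slow, was not measured here. Of 81 tested mitochondrial ribosomal protein genes, 47 were higher and 34 lower, with a median of 0.02. At an unadjusted p under 0.05 stood 3 higher and 1 lower, and 0 were called. Whether the lists differed from each other was not tested.

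**Figure D4:**
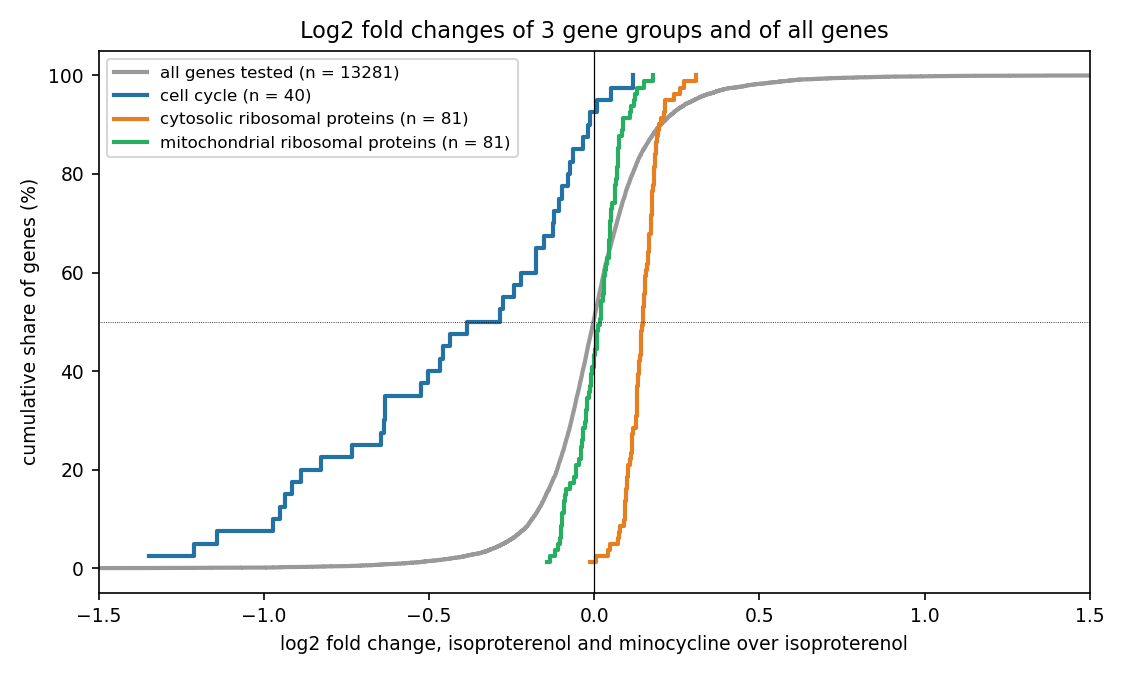
Cumulative share of genes (y axis, percent) by log2 fold change of isoproterenol and minocycline over isoproterenol (x axis) for cell cycle genes, cytosolic and mitochondrial ribosomal protein genes and all genes tested. The cell cycle curve lies left of all genes, with a median of -0.34, the cytosolic ribosomal curve lies right with a median of 0.15, and the mitochondrial ribosomal curve crosses near 0.

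The other mitochondrial lists also held 0 called genes. The 13 protein genes of the mitochondrial genome had a median log2 fold change of 0.08, with 9 higher and 4 lower. Over all genes tested, 3.88% were higher and 3.73% lower at an unadjusted p under 0.05. Of the 13 genes, 3 stood at that p, all higher. These were mt-Cytb (0.22, SE 0.06, adjusted p = 0.342), mt-Co3 (0.18), which overlaps mt-Atp6, and mt-Co2 (0.14). The 81 nuclear subunits of oxidative phosphorylation had a median of 0.01, with 3 higher and 1 lower at that p. Among 25 mitochondrial translation and RNA factors 2 were lower at that p, the elongation factor Tsfm (-0.23, SE 0.08) and Tfb1m (-0.27). The 31 tested genes of the mitochondrial and integrated stress response had a median of -0.02 and 0 called: its transcription factor Atf4 was at 74.9 ± 5.83 CPM without and 82.3 ± 3.91 CPM with minocycline (log2 fold change 0.14, 95% interval -0.02 to 0.29), and its secreted marker Gdf15 at 0.807 ± 0.426 and 0.616 ± 0.226 CPM.

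Fatty acid oxidation, the main fuel pathway of the adult heart, had 0 called genes of 42 and a median of -0.04. The mitochondrial enzymes Acads (log2 fold change -0.28, SE 0.07, adjusted p = 0.240) and Cpt2 (-0.24, SE 0.08) were among 4 lower at an unadjusted p under 0.05, and the outer membrane transferase Cpt1a was the 1 member higher at that p (0.27). The glycolytic list of 32 genes had 4 higher at that p, Eno1 (0.15) and Aldoa (0.12) among them, and a median of -0.005.

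Genes of cardiomyocyte stress were variable among the libraries. Myh7, the β myosin heavy chain of fetal heart, ranged from 35.9 to 152 CPM without minocycline (median 49.4) and from 102 to 321 CPM with it (median 200.3), and isoproterenol replicate 5 lay inside the range with minocycline. Its log2 fold change was 1.48 (SE 0.47, adjusted p = 0.469), and it overlaps the antisense gene Mhrt. The control mean of 210 ± 137 CPM was near that with both drugs. The natriuretic peptide genes Nppa (0.91, SE 0.40, adjusted p = 0.615) and Nppb (0.79, SE 0.33, adjusted p = 0.593) stood higher without passing the threshold.

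Nppa is also an atrial gene, and all 5 tested atrial markers were higher in the mean, by a median of 0.88, with summed levels of 84.9 to 428 CPM without and 111 to 902 CPM with minocycline and 0 called. The part of atrial tissue in the values of Nppa, Nppb and Myh7 was not tested. Myh6, the adult isoform, stood at 0.09 (95% interval -0.03 to 0.22), skeletal actin Acta1 at 0.56 (-0.36 to 1.48) and the calcium pump Atp2a2 at -0.11 (-0.40 to 0.18). Adrb1, the main cardiac β-receptor, was at 4.89 ± 1.28 CPM without and 3.93 ± 1.22 CPM with minocycline (-0.31, SE 0.19). Its desensitising kinase Grk5 was at 36.9 ± 3.82 and 36.3 ± 4.30 CPM (-0.02, SE 0.09). Fhl1, a stretch-responsive sarcomere protein, was at 171 ± 8.70 and 184 ± 5.78 CPM (0.11, SE 0.06).

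The fibrosis and extracellular matrix list held 0 called genes of 68 tested and had a median of 0.04. Postn, the matricellular marker of activated fibroblasts, averaged 138 ± 30.8 CPM without and 139 ± 60.3 CPM with minocycline (log2 fold change 0.007, 95% interval -0.61 to 0.63), against 55.6 ± 26.4 CPM in control. A difference inside this wide interval was not detectable. Col1a1 stood at -0.12 (-0.50 to 0.27), Col3a1 at -0.34 (-0.77 to 0.08), and tenascin C, Tnc, at 0.10 (-0.40 to 0.59).

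Mmp2 and Mmp14 are matrix metalloproteinases, enzymes that minocycline is known to inhibit, and their mean transcript levels were close between the groups. Mmp2 was at 71.3 ± 11.2 CPM without and 66.8 ± 16.7 CPM with minocycline (log2 fold change -0.09, 95% interval -0.39 to 0.21), and Mmp14 at 12.8 ± 1.73 and 13.4 ± 3.05 CPM. Mmp9 was too low to test, with 34 counts summed over each group. The inhibitor Timp1 stood at 0.48 (-0.08 to 1.04) and Mmp3, a stromelysin, at 0.49 (SE 0.20, adjusted p = 0.574). Of 38 protease and inhibitor genes, 0 were called and the median was 0.06.

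Of 53 tested inflammatory cytokine and chemokine genes, 0 were called. In the mean 32 were higher and 21 lower, with a median of 0.06. Over all genes tested, 3.88% were higher and 3.73% lower at an unadjusted p under 0.05. In this list 7 were higher and 2 lower at that p. The higher ones included the oncostatin M receptor Osmr (0.32, SE 0.10), Ccl6 (0.52, SE 0.17), Cxcl12 (0.38, SE 0.14) and lipocalin 2, Lcn2 (0.99, SE 0.40). The monocyte attractant Ccl2 was at 3.49 ± 0.862 CPM without and 4.18 ± 1.25 CPM with minocycline (0.28, 95% interval -0.14 to 0.69). Il6, Il1b and Tnf were too low to test: their counts summed to 18, 53 and 31 over the 6 libraries without and 21, 47 and 34 over those with minocycline.

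Complement C3 was at 197 ± 30.7 and 237 ± 53.3 CPM (0.27, 95% interval -0.007 to 0.54). Of 20 complement genes 17 were higher, with a median of 0.08 and 0 called. Among 39 interferon-stimulated genes the median was -0.04 and 0 were called. Parp1, the DNA damage sensor, was at 34.2 ± 2.41 CPM without and 29.8 ± 4.44 CPM with minocycline (log2 fold change -0.20, SE 0.08, adjusted p = 0.593). The 34 genes of cell death and PARP had a median of -0.06. The antioxidant genes Hmox1 (-0.14, SE 0.15) and Gpx3 (0.20, SE 0.14) did not pass the threshold, and none of their list of 41 did. In that list 4 were higher and 1 lower at an unadjusted p under 0.05, with a median of 0.02.

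**Figure D5:**
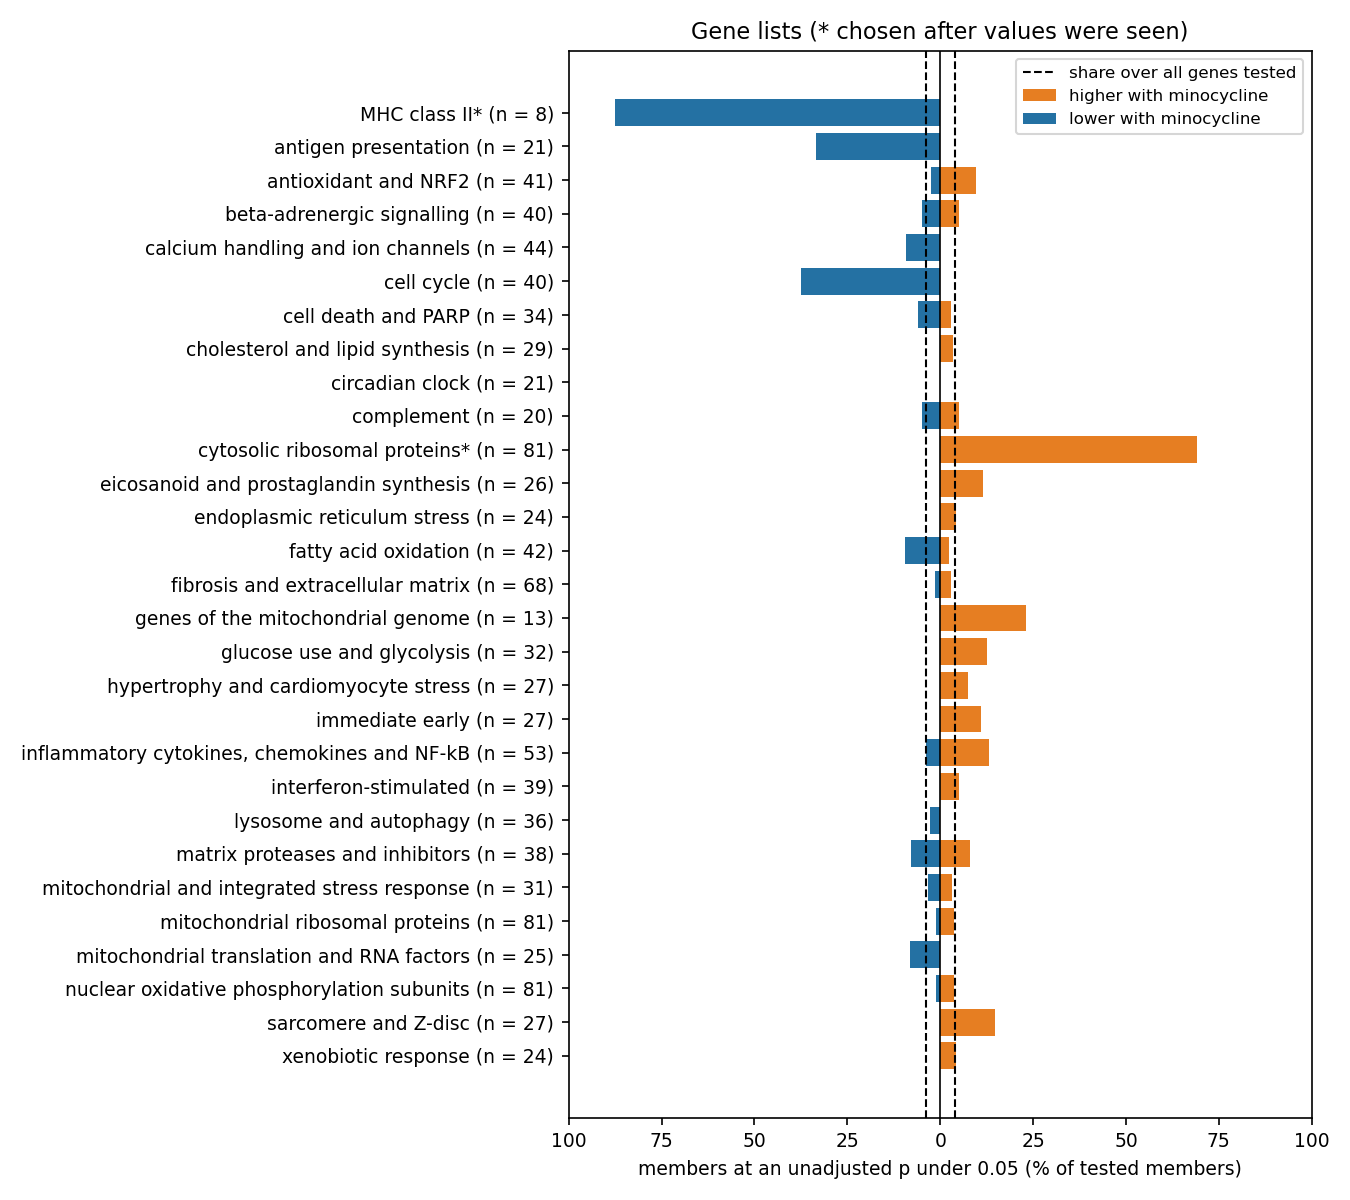
Share of tested members of each gene list at an unadjusted p under 0.05 (x axis, percent of tested members), higher with minocycline to the right and lower to the left, with dashed lines at the shares over all genes, 3.88% and 3.73%. The MHC class II, antigen presentation and cell cycle lists extend to the left, and the cytosolic ribosomal list to the right.

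Markers of further cell types gave 0 called genes. All 8 tested adipocyte markers (median 0.75, summed 615 to 830 CPM without and 726 to 895 CPM with minocycline) and all 5 erythroid markers (median 0.67) were higher in the mean. Most of the adipocyte sum was Fabp4, also in the endothelial list, and Plin4. These held 147413 and 101077 counts over all 18 libraries, against 2888 for Car3 and 475 for Adipoq. The highest library with minocycline reached 2261 CPM of summed erythroid markers, against a group median of 712 CPM. The 7 lymphatic endothelial markers had 3 higher at an unadjusted p under 0.05, Lyve1, Reln and Mmrn1, and summed to 103 to 129 CPM without and 119 to 153 CPM with minocycline. Fibroblast, endothelial, and smooth muscle and pericyte markers had medians of 0.16, 0.07 and 0.02. Neutrophil markers were scarce, with Ly6g and Ngp at 0 in all 12 libraries, and S100a9 was at 0.929 ± 0.552 CPM without and 0.305 ± 0.208 CPM with minocycline.

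The genes most like each called gene were sought by Pearson's r of log2-CPM over the 12 libraries among 12276 genes of at least 1 CPM; the group difference itself enters these values, and they are descriptions. H2-Ab1 was most like H2-Aa (r = 0.98), Cd74 (0.97) and H2-Eb1 (0.96), and within the 6 libraries without minocycline r with H2-Aa was 0.96. Ptgds was most like Rpsa (0.92), Pfdn5 (0.91) and Stra13 (0.90). Within the groups these were 0.58, 0.45 and 0.63 without and 0.78, 0.66 and 0.81 with minocycline. Prnd was most like Cryba4 (0.88), Top2a (0.88) and Foxm1 (0.88). Within the groups these were 0.35, 0.70 and 0.19 without and 0.79, 0.83 and 0.78 with minocycline. Camk2b was most like Ptprc (0.91), which within the groups was 0.70 without and 0.75 with minocycline. 3425401B19Rik was most like Aldh3a2 (0.90), with 0.86 within the group without and 0.54 within the group with minocycline. 2210407C18Rik was most like Foxo6os (0.92), with 0.80 and 0.67 in the same order.

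The authors' deposited table has its own comparison of isoproterenol with minocycline, in which 24 of 16005 genes have an FDR under 0.05, 16 of them lower and 8 higher with minocycline. Of the 7 genes called here, 6 are among them and Camk2b is not. For Ptgds, the authors' deposited table gives a fold change of 2.60 in size with an FDR of 3.0e-24. Myh7 is also listed there, with a fold change of 2.79 and an FDR of 5.1e-05 in the authors' deposited table, while edgeR's adjusted p here was 0.469. H2-Eb1, Apln, Peg3, Cd74, Mki67, Cxcl9, Lcn2 and Lyve1 are further genes of the authors' deposited table that did not pass the threshold here.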

How the data were processed

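Polyadenylated RNA of 18 left ventricle libraries was sequenced as paired reads. Per the labels' protocols, reads were trimmed and analysed in CLC Genomics Workbench 21.0.3. The submitters' processing notes name edgeR without a role. Mapping settings, build, annotation and strandedness were not given in the sources used here. Used were the authors' deposited counts per gene and library (48709 genes) and deposited TPM, the latter for levels per length only. Comparison columns (fold change, log2 fold change, p-value and FDR, deposited by the authors) were only quoted, and RPKM group maxima, per the file headers, were not used. Columns were matched by the number in the description field, and per-sample columns of no library numbered 0. Titles carry another number than descriptions. Of the gene identifiers 48349 are in GENCODE M21 (GRCm38), and 87.8% of the table has identical start and end. Shared symbols were given a suffix (238).

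Genes passing filterByExpr (13281) were fitted in edgeR 4.0.16 (R 4.3.3; TMM, robust quasi-likelihood) over all 18 libraries by group. Calls were made at a 2-sided Benjamini-Hochberg adjusted p under 0.05. The p-values reflect only variation from library to library, which may be technical in part. No 2 libraries held the same values. Alternatives used DESeq2 1.42.0, limma 3.58.1 (voom), other scalings, filters and left-out libraries. The text names all called genes, the 20 of smallest p at 1 CPM or more and a fixed panel. Of the panel, Mmp12 (log2 fold change 0.27), mt-Co1 (0.08) and Hadh (-0.15) are named only here and were not called. The text also names up to 2 members of each list by p, and up to 3 of the likest genes per called gene. Further members were named after their values were seen. The gene lists hold 1169 symbols, 1159 of them matched. Comparison, lists and panel were chosen with earlier results of these data known.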

Additional observations from a re-analysis of the deposited data

Results flagged for a closer look

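In 102 groups of 6 libraries, 7 held a single library whose gap to its nearest neighbour, as a share of the group's range, was above the 95% critical value of Dixon's test, which chance exceeds in about 1 in 20 groups. Among the called genes, Camk2b stood at 4.78 CPM in minocycline replicate 5, below the other 5 libraries of that group at 5.56 to 6.00 CPM. Prnd stood at 2.94 CPM in minocycline replicate 6, above the others at 0.403 to 1.13 CPM. In isoproterenol replicate 1, Fhl1 was at 188.6 CPM (others 165 to 168 CPM) and Adrb1 at 7.42 CPM (others 4.04 to 4.88 CPM). In isoproterenol replicate 3, Col3a1 was at 299.9 CPM (others 170.2 to 219 CPM) and Tnc at 9.005 CPM (others 4.67 to 5.76 CPM). Gpx3 was at 368 CPM in isoproterenol replicate 5 (others 245 to 289 CPM).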

How the results depend on the processing

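No paired analysis was possible because the labels give no batch, date or pairing. The number of called genes, 7, was 37 with DESeq2, 2 in a fit of the 12 libraries compared, 1 without the libraries above 80 CPM of Myl7, 5 with upper-quartile scaling, and 5 to 8 in the remaining fits of all libraries. Leaving out 1 library gave 1 to 13 genes: 2 without minocycline replicate 5, 3 without isoproterenol replicate 3 or 4, 4 without isoproterenol replicate 5 and 11 without isoproterenol replicate 2. The cause was not tested. The Myl7 and atrial covariate fits were chosen after seeing the data. The difference in total counts was 1730810 to 2919360 without single libraries, with exact permutation p = 0.0498 without isoproterenol replicate 3. Genes near 0 turned sign. With limma-voom the log2 fold change was -0.014 for Mmp14, -0.074 for Tnc and -0.19 for Postn. With the atrial covariate it was -0.016 for Lgals3, -0.00236 for Tnc, 0.0058 for Grk5 and -0.12 for Postn. Without single libraries the range was -0.00333 to 0.19 for Lgals3, -0.053 to 0.14 for Mmp14, -0.094 to 0.27 for Tnc, -0.29 to 0.076 for Ccl12, -0.063 to 0.014 for Grk5 and -0.22 to 0.11 for Postn. The median over the antigen presentation list was -0.27 to -0.08 over all alternatives.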

Other observations

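Further gene lists held 0 called genes and are given as values. Among 27 tested immediate early genes 20 were higher with minocycline (median log2 fold change 0.17), with the transcription factor gene Fos at 10.5 ± 4.67 CPM without and 19.7 ± 11.1 CPM with minocycline (0.92, SE 0.40, edgeR adjusted p = 0.607), Junb, overlapped by Prdx2, at 0.40 (SE 0.18) and Ier2 at 0.32 (SE 0.15). The 21 circadian clock genes, none at an unadjusted p under 0.05, had a median of 0.05. The lysosome and autophagy list of 36 had a median of -0.03, with the autophagy kinase Ulk1 at -0.26 (SE 0.10). The 29 genes of cholesterol and lipid synthesis had a median of 0.02, with the desaturase Scd1 at 19.2 ± 4.66 CPM without and 32.5 ± 12.1 CPM with minocycline (0.77, SE 0.24, adjusted p = 0.465). The 24 xenobiotic genes had a median of 0.11, with Fmo2 at 0.60 (SE 0.25). The β-adrenergic list of 40 had 17 genes higher and 23 lower, with a median of -0.05. At an unadjusted p under 0.05 stood 2 higher and 2 lower. The phosphodiesterase Pde1a was at 0.52 (SE 0.13, adjusted p = 0.273) and the inhibitory G protein Gnai1 at 0.58 (SE 0.16, adjusted p = 0.328), and Pde4b at -0.29 and Rapgef4 at -0.18. Of 5 tested mast cell markers 4 were higher, with a median of 0.18. The lower one, the receptor gene Kit, was at 3.06 ± 0.898 CPM without and 1.98 ± 0.294 CPM with minocycline (-0.62, SE 0.19, adjusted p = 0.451).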
